A study of Mus musculus with 7 samples.

Results

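Creatine kinases and the genes of creatine synthesis and uptake were followed through bulk RNA sequencing of 7 mouse hearts. The set held 7 of the 23420 gene rows of the table: the muscle-type kinase Ckm, the sarcomeric mitochondrial kinase Ckmt2, the brain-type kinase Ckb, the ubiquitous mitochondrial kinase Ckmt1, the creatine transporter Slc6a8 and the synthesis enzymes Gatm and Gamt. The genes were chosen by name, with the outcome of the comparison described here already known. Their differences between the groups are therefore given as a description, and nothing is supported with them. All 7 genes passed the filter on low values, which asked for 10 or more normalized counts in 3 or more libraries.

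The 4 control hearts had the genotype Ctla4+/+;Pdcd1-/- and the 3 ICI-myocarditis hearts had the genotype Ctla4+/-;Pdcd1-/-. ICI stands for immune checkpoint inhibitor, a class of cancer drugs that block CTLA-4 or PD-1, the receptors encoded by Ctla4 and Pdcd1, and myocarditis is inflammation of the heart muscle. All 7 animals lacked Pdcd1 by their labels, controls included, so no group stood for a heart with both genes intact. Every animal was labelled as untreated and as 3 to 6 weeks old, and the labels name no inhibitor, Cre driver or tissue-specific promoter. The tissue is labelled as the whole heart, while the extraction protocol names the ventricle. Each library came from the total RNA of 1 mouse.

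Creatine kinases move a phosphate group between ATP and creatine. Phosphocreatine buffers ATP and carries energy from mitochondria to the sarcomere and the ion pumps, and heart muscle uses this shuttle heavily. Cytosolic kinases are dimers of M and B subunits, encoded by Ckm and Ckb, and mitochondrial kinases sit between the mitochondrial membranes. Heart muscle cells make little creatine and import it through the SLC6A8 transporter. Synthesis takes place mainly in kidney and liver, where GATM joins arginine and glycine to guanidinoacetate and GAMT methylates that product to creatine.

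Libraries held 20931730 to 39037176 reads assigned to genes. The targeted genes did not check the labels: Ctla4 ranged from 29.2 to 113 normalized counts in controls and from 251 to 373 in ICI-myocarditis, and Pdcd1 from 2.50 to 244 and from 1096 to 1481. The table gives no exon for the Pdcd1 reads. On the first principal component (68.6% of the variance), control 2 scored -2.25, between the other controls (61.2 to 96.7) and the ICI-myocarditis libraries (-105 to -58.9). The T cell marker sum in control 2 was 1308 normalized counts, against 101 to 163 in the other controls and 5926 to 9054 in ICI-myocarditis. Where a call changed when control 2 was left out, the value without it is also given. All 10 cardiomyocyte markers were present in every library, with Ttn and Myh6 the highest. Of 15258 genes tested with limma on log2(normalized count + 1), 15.7% passed an adjusted p of 0.05, 4.00% of the genes lower and 11.7% higher in ICI-myocarditis. In 11.3% of genes every ICI-myocarditis library lay below every control, and in 17.3% every one lay above. The median log2 fold change over all genes was -0.02.

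Of the 7 creatine genes, 3 passed that threshold, Ckm and Ckmt2 lower and Gatm higher in ICI-myocarditis, against the 15.7% of all genes. In 3 genes, Ckm, Ckmt2 and Gamt, the ICI-myocarditis libraries lay wholly below the controls, and in Gatm wholly above. The other members, Ckb, Ckmt1 and Slc6a8, had overlapping groups. Since the genes were selected on this comparison, these shares are not read against the background.

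The sequence just upstream of the RefSeq start site (assembly GRCm38.p6) is shown for the muscle kinases Ckm and Ckmt2, which were both lower in the diseased hearts, beside Ckb and Gatm, which were not. RefSeq promoter windows were matched for 6 of the 7 genes. Each line runs 5′ to 3′ on the gene's strand. Capitals mark matches, on either strand, to the E-box CANNTG bound by myogenic factors, the TATA box TATAAA, the estrogen-related receptor motif AAGGTCA, the M-CAT element CATTCC bound by TEAD factors, and the CArG and MEF2 motifs.
Ckm, chr7:19410844-19411024, plus strand: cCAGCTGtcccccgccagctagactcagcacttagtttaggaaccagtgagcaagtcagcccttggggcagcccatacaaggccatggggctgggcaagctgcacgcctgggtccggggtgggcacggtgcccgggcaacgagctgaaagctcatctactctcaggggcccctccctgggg
Ckmt2, chr13:91876886-91877135, minus strand: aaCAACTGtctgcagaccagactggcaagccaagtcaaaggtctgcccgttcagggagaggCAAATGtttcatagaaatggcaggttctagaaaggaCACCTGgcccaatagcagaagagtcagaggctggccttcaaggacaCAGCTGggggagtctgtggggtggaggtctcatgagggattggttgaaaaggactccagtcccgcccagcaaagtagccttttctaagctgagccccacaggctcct
Ckb, chr12:111672339-111672588, minus strand: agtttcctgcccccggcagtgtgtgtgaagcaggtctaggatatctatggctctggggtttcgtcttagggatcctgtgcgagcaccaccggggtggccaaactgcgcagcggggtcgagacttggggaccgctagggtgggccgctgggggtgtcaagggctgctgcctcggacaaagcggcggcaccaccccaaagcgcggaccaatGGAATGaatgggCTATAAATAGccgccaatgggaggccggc
Gatm, chr2:122611304-122611527, minus strand: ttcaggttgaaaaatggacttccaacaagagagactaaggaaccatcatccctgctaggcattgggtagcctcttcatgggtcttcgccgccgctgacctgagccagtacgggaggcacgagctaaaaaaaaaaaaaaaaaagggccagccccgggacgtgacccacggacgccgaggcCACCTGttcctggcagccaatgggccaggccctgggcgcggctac
The search covered the 250 bases before each start. The last 69 of them for Ckm and the last 26 for Gatm lie in an exon of the GENCODE annotation and are not printed. Ckmt2 had 4 E-box matches, beginning 248, 189, 153 and 107 bases before the start, Ckm had 1 at 249 bases and Gatm had 1 at 71 bases. Ckb had no E-box match. It carried a TATA box match 28 bases before the start, an MEF2 match at 29 bases that overlaps the TATA box match, and an M-CAT match at 41 bases. Of 32851 mouse promoter windows of the same length, 66.2% held at least 1 E-box match and 12.2% held 3 or more. A TATA box match was present in 12.4%, an M-CAT match in 12.6%, an MEF2 match in 2.92%, an estrogen-related receptor match in 4.08% and a CArG match in 1.47%. These matches describe letters and do not show binding.

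Both muscle-specific kinases were lower in every ICI-myocarditis heart than in any control. Ckm, on chromosome 7 (19404776 to 19422841, plus strand, GRCm38), encodes the M subunit that binds the sarcomere's M-band. It had 36747, 17662, 29969 and 52342 normalized counts in controls 1 to 4 and 12445, 14744 and 5347 in ICI-myocarditis 1 to 3. The lowest control, control 2, and the highest diseased heart, ICI-myocarditis 2, were close, and ICI-myocarditis 3 stood far below the rest. The group means were 34180 ± 14457 (SD, n = 4) and 10845 ± 4898 (SD, n = 3). The log2 fold change was -1.68 (SE 0.457, 95% interval -2.71 to -0.65), a 3.20-fold lower geometric mean in ICI-myocarditis. It was the 189th lowest of the 15258 fold changes.

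Ckmt2, on chromosome 13 (91853387 to 91876885, minus strand), encodes the mitochondrial kinase of striated muscle, which takes ATP as it leaves the matrix. Control hearts had 60683, 41796, 57911 and 69851 normalized counts and ICI-myocarditis hearts had 30721, 28178 and 12018. Again control 2 was the lowest control and ICI-myocarditis 3 the lowest of all, and a gap separated the groups. The means were 57560 ± 11683 (SD, n = 4) and 23639 ± 10144 (SD, n = 3), and the log2 fold change was -1.37 (SE 0.389, 95% interval -2.25 to -0.50), a 2.59-fold lower geometric mean.

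**Figure D1:**
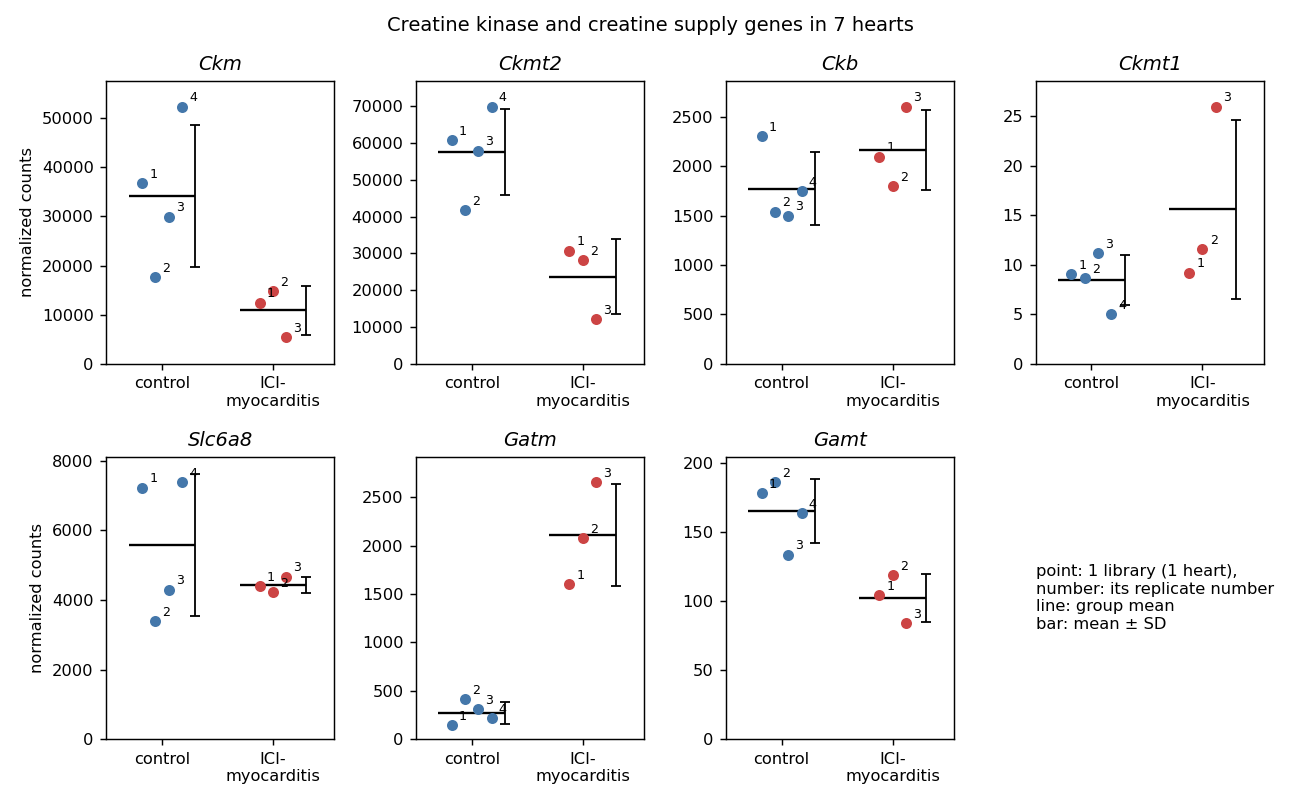
Normalized counts of the 7 creatine genes (vertical axes, each from 0) in the 4 control and 3 ICI-myocarditis hearts. Points are libraries with their replicate numbers, lines are group means and bars are ± 1 SD. Ckm, Ckmt2 and Gamt have all ICI-myocarditis points below all control points, Gatm has them above, and the groups overlap for Ckb, Ckmt1 and Slc6a8.

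In the fit over all genes the limma adjusted p was 0.0374 for Ckm and 0.0426 for Ckmt2, both near the threshold. Each passed it in 11 of 18 alternative analyses. Without control 2 the log2 fold changes were -1.96 for Ckm (limma adjusted p = 0.00968) and -1.52 for Ckmt2 (limma adjusted p = 0.0224). Without ICI-myocarditis 3 they were -1.23 (limma adjusted p = 0.154) and -0.94 (limma adjusted p = 0.167), so neither passed. Leaving out control 1, 3 or 4 or ICI-myocarditis 2 also left both above the threshold, with limma adjusted p from 0.0502 to 0.112, and Ckm alone was lost without ICI-myocarditis 1 (limma adjusted p = 0.0635). The authors' deposited table gave log2 fold changes of -1.66 for Ckm (adjusted p = 0.00159) and -1.28 for Ckmt2 (adjusted p = 0.00319).

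Transcripts that mark heart muscle cells did not pass the threshold in the limma fit over all genes. All 10 cardiomyocyte markers had fold changes below 0, with a median log2 value of -0.75 and a lowest of -1.16. In that fit 0 were called, and the groups were apart in 3 and overlapped in 7. In the authors' deposited table the 3 set apart passed, with adjusted p of 0.011 (Myh6), 0.021 (Mybpc3) and 0.040 (Tnni3). The 7 that overlapped did not pass there. Of the 18 alternatives, Mybpc3 passed in 2, and Myh6 and Tnni3 in 1 each. Whether these 3 markers were called therefore depended on the test. The summed level of the 10 markers was 2501728 to 5144015 normalized counts in controls and 1923175 to 3026137 in ICI-myocarditis. None of the 10 had a fold change as low as Ckm or Ckmt2. In bulk tissue, fewer cells of a type and less RNA per cell cannot be told apart. When the mean log2 level of the 10 markers was subtracted within each library, Ckm differed by -0.95 and Ckmt2 by -0.65 log2 units on average between ICI-myocarditis and control, and the groups were apart for both. Without control 2 these differences were -0.996 and -0.56. On the same scale Slc6a8 differed by 0.47 and Ckb by 1.02, with overlapping groups. Gamt differed by 0.04, also with overlap, and by 0.33 without control 2.

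**Figure D2:**
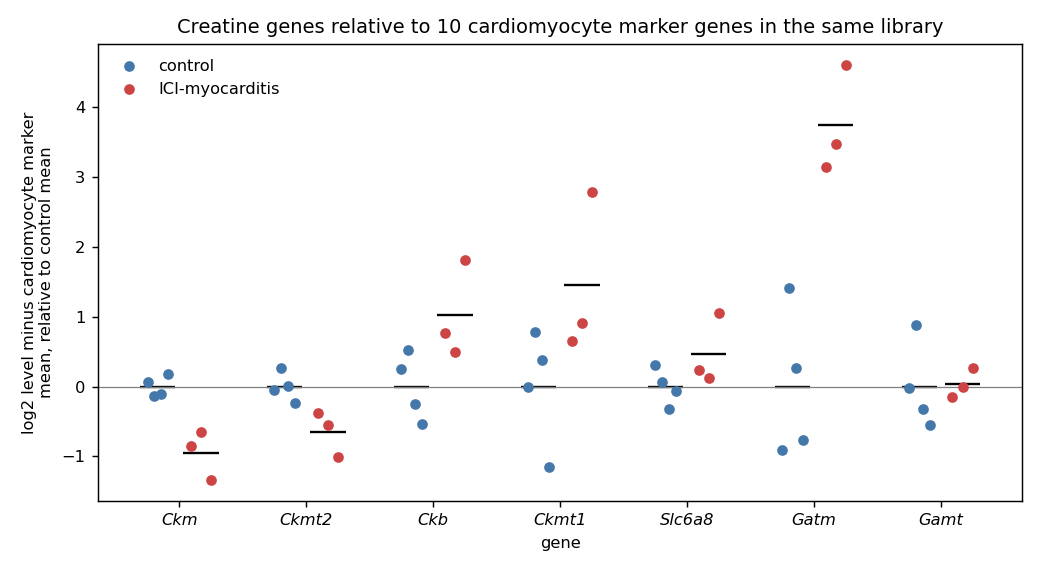
Log2 level of each creatine gene minus the mean log2 level of 10 cardiomyocyte markers in the same library, relative to the control mean (vertical axis, log2 units). Points are libraries and lines are group means. Ckm and Ckmt2 lie below the controls (mean differences -0.95 and -0.65), the groups overlap for Gamt (0.04, or 0.33 without control 2) and Gatm is 3.74 higher.

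The kinases shared with other tissues had overlapping groups. Ckb, on chromosome 12 (111669361 to 111672338, minus strand), encodes the B subunit found in brain, smooth muscle and many other cell types and, at a lower level, in the heart. Its normalized counts were 2307, 1539, 1499 and 1750 in controls and 2097, 1797 and 2604 in ICI-myocarditis. The highest value was in ICI-myocarditis 3, the heart with the least Ckm, but control 1 exceeded both other diseased hearts. The log2 fold change was 0.29 (SE 0.220, 95% interval -0.20 to 0.79), an interval that holds both no difference and a rise of 0.79 log2 units.

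Ckmt1, on chromosome 2 (121357714 to 121363737, plus strand), encodes the mitochondrial kinase of non-muscle tissues. Control hearts had 9.07, 8.63, 11.2 and 5.005 normalized counts and ICI-myocarditis hearts had 9.21, 11.6 and 25.98. Only ICI-myocarditis 3 lay above all controls by more than 1 count. Ckmt1 passed the filter narrowly, reaching 10 normalized counts only in control 3 and in ICI-myocarditis 2 and 3. The log2 fold change was 0.72 (SE 0.512, 95% interval -0.43 to 1.87). At these low counts the interval holds both no difference and a rise of 1.87 log2 units. Strc, on the opposite strand, overlaps the end of Ckmt1 and had 1.25 to 7.82 normalized counts in controls and 10.7 to 18.8 in ICI-myocarditis. An antisense transcript of Ckm, A930016O22Rik, had 50.05 to 250 and 28.3 to 49.3. Whether reads were counted by strand is not given in the sources used here, so reads of such pairs may be mixed.

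The kinases were put on one scale as normalized counts per kilobase of coding sequence, with coding lengths of 1143 bases for Ckm and Ckb, 1257 for Ckmt2 and 1254 for Ckmt1. Ckmt2 was the highest in every library, then Ckm, Ckb and Ckmt1. The level of all 4 together was 77254 ± 21891 per kilobase (SD, n = 4 controls) against 30202 ± 11834 (SD, n = 3 diseased hearts), and the groups did not overlap. Ckmt2 exceeded Ckm by 1.66 ± 0.398-fold in controls and 2.01 ± 0.255-fold in ICI-myocarditis, with overlapping groups. This ratio depends on the length used and was 3.36 and 4.08 per length of the principal transcript, since that of Ckm has 2742 bases.

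The balance of the transcripts that encode the cytosolic subunits differed between the groups. Protein levels are not part of these data. Ckm exceeded Ckb per coding kilobase by 15.9-, 11.5-, 20- and 29.9-fold in controls 1 to 4 and by 5.93-, 8.20- and 2.05-fold in ICI-myocarditis 1 to 3. Every diseased heart lay below every control, and ICI-myocarditis 3 came nearest to equal levels. Per length of the principal transcript the folds were smaller, 6.16 to 16.1 in controls and 1.102 to 4.404 in ICI-myocarditis, and the groups were again apart. The log2 ratio of Ckb to Ckm was 1.97 higher in ICI-myocarditis on average, and 2.19 higher without control 2. Ckb made up 2.45%, 2.69%, 1.78% and 1.49% of the summed kinase level in controls and 4.94%, 4.26% and 13.8% in ICI-myocarditis. This larger share came with a Ckb level that overlapped between the groups and a Ckm level that did not.

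**Figure D3:**
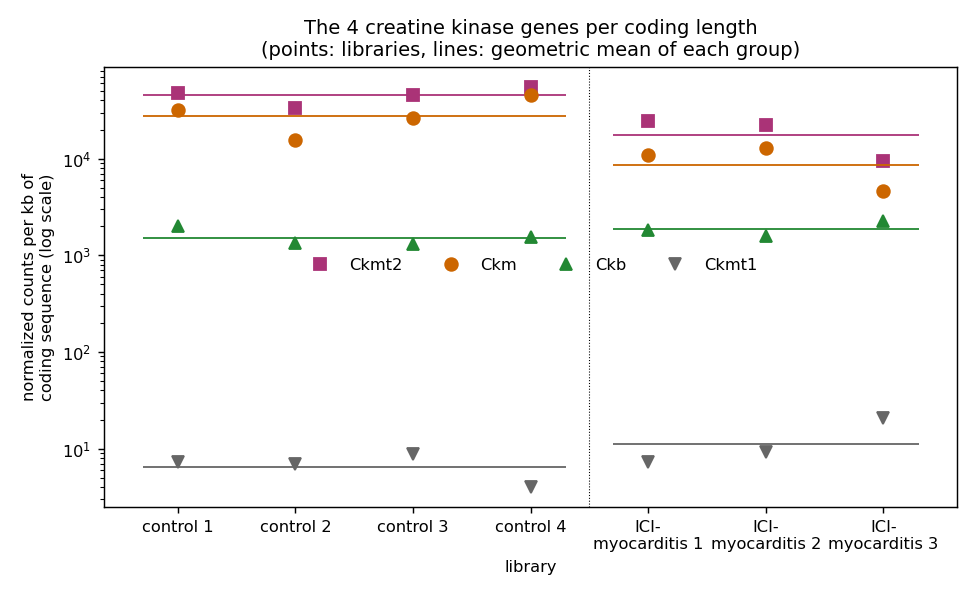
Normalized counts per kilobase of coding sequence (vertical axis, log scale) of the 4 creatine kinase genes in each library (horizontal axis). Points are libraries and lines are geometric means of each group. The order Ckmt2, Ckm, Ckb, Ckmt1 holds in every library, and the gap between Ckm and Ckb narrows from 11.5-fold or more in controls to 8.20-fold or less in ICI-myocarditis.

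Uptake was represented by Slc6a8, on chromosome X (73673150 to 73682502, plus strand), which encodes the sodium- and chloride-coupled creatine transporter. Its normalized counts were 7227, 3389, 4301 and 7377 in controls and 4399, 4218 and 4674 in ICI-myocarditis. The diseased hearts lay within the control range. Slc6a8 had a log2 fold change of -0.25 (SE 0.303, 95% interval -0.94 to 0.43), which passed the limma threshold in 0 of 18 alternatives. Per coding kilobase Slc6a8 stood behind Ckmt2 and Ckm among the 7 genes in both groups, at 2926 ± 1066 (SD, n = 4 controls) and 2326 ± 120 (SD, n = 3 diseased hearts). Its neighbour Ckb, at 1552 ± 326 and 1895 ± 357, was below Slc6a8 in every library on this scale. That order also depends on the length used. Per length of the principal transcript, Slc6a8 and Ckb had means of 1682 and 1205 in controls, but 1337 and 1472 in ICI-myocarditis.

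The enzymes of synthesis lay on opposite sides of the controls. Gatm, on chromosome 2 (122594467 to 122611303, minus strand), encodes the first and regulated enzyme of the pathway. It had 149, 414, 312 and 216 normalized counts in controls 1 to 4 and 1600, 2073 and 2651 in ICI-myocarditis 1 to 3. All diseased hearts lay far above all controls, and control 2 was the highest control. The means were 273 ± 116 (SD, n = 4) and 2108 ± 526 (SD, n = 3). The log2 fold change was 3.02 (SE 0.345, 95% interval 2.24 to 3.79), an 8.09-fold higher geometric mean and the 457th highest of all genes. Its limma adjusted p was 0.00253, it passed in 18 of 18 alternatives with log2 values of 2.76 to 3.25, and without control 2 the value was 3.25.

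Gamt, on chromosome 10 (80258151 to 80261012, minus strand), encodes the methyltransferase that completes creatine. It had 178, 186, 134 and 164 normalized counts in controls and 104, 119 and 84.0 in ICI-myocarditis. Each diseased heart lay below each control, with the smallest gap between ICI-myocarditis 2 and control 3. The log2 fold change was -0.69 (SE 0.254, 95% interval -1.26 to -0.12) with a limma adjusted p of 0.0996, which did not pass. The authors' deposited table gave -0.69 with an adjusted p of 0.0433, and DESeq2 on the recovered reads gave an adjusted p of 0.0396. The log2 ratio of Gatm to Gamt counts was -0.26, 1.15, 1.22 and 0.40 in controls and 3.94, 4.12 and 4.98 in ICI-myocarditis, a mean difference of 3.72 with no overlap.

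Marker genes of immune and stromal cells differed between the same hearts. Of 9 macrophage and monocyte markers, 8 passed the limma threshold higher in ICI-myocarditis, with a median log2 fold change of 2.28, and Lyz2 and C1qb had the highest mean counts of the list. The summed macrophage level was 15452 to 20276 normalized counts in controls and 58066 to 86986 in ICI-myocarditis. All 6 T cell markers passed higher, with Cd8a and Cd3e having the highest mean counts. Of 6 fibroblast markers, Col1a1 and Col1a2 passed higher and had the highest mean counts. The sums, which include both collagen genes, were 34104 to 51752 and 63416 to 124640. The other fibroblast markers, named after their values were seen, did not pass. Groups overlapped for Pdgfra (log2 fold change 0.27), Dcn (0.11) and Lum (0.51) and were apart for Tcf21 (0.70). The part of these cells in the Gatm difference was not tested.

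Markers of vessels differed the other way. Of 6 endothelial markers 4 passed lower, of 4 pericyte markers 3 and of 4 smooth muscle markers 2, and smooth muscle is among the tissues that express Ckb. The highest mean counts were those of Kdr and Cdh5, of Abcc9 and Rgs5, and of Acta2 and Myh11. Myh11 passed with all libraries (limma adjusted p = 0.0383) but not without control 2 (limma adjusted p = 0.0501). Summed levels were 25430 to 64043 and 15952 to 23489 for endothelium, 41502 to 57849 and 16023 to 23867 for pericytes, and 8926 to 17910 and 5083 to 8535 for smooth muscle. Skeletal muscle markers, whose tissue is rich in Ckm, were low, at 78.2 to 205 and 167 to 222 normalized counts in sum, with Tnnt3 passing higher. Myh4, too low to test, was at 0 in all 3 diseased hearts and in control 2, and at 87.7 in control 1. Of the neuron and Schwann cell markers, Tubb3 passed higher (log2 fold change 4.68, limma adjusted p = 0.00251), while Th was listed at 0 in all 7 libraries. The 4 fat markers were too low to test. The part of these cells in the kinase values was not tested either.

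Around the creatine genes, 44 related genes in 8 groups were examined, of which 42 passed the filter. At the limma threshold 3 of the 42 passed, or 7.14%, against 15.7% of all genes. Among them Arg1 was higher and Gnmt lower in ICI-myocarditis. Fold changes lay below 0 for 33 of the 42, and for 28 under scaling by library total, which shifts the median of all genes by 0.16. Relative to that median 33 were lower under either scaling. The median log2 value of the list was -0.34, against -0.02 over all genes. The count depended on control 2, since without it 12 genes passed, 8 of them lower and 4 higher, and without ICI-myocarditis 3 only Arg1 did.

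Genes that supply or use arginine, the substrate of GATM, held the largest difference. Arg1 encodes the cytosolic arginase, which splits arginine into ornithine and urea and is known in alternatively activated macrophages. Its normalized counts were 12.1, 30.8, 22.3 and 22.5 in controls and 182, 367 and 436 in ICI-myocarditis, all diseased hearts far above all controls. On the log2 scale Arg1 was 3.82 higher (SE 0.422), with a limma adjusted p of 0.00251, and every one of the 18 alternatives called it. Of the 8 tested genes of this group only Arg1 passed.

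Slc7a2, which encodes a cationic amino acid transporter that carries arginine, had 166, 245, 250 and 189 normalized counts in controls and 270, 643 and 1284 in ICI-myocarditis. The groups did not overlap, but the diseased hearts spread widely, and the log2 fold change of 1.53 (SE 0.454) had a limma adjusted p of 0.0505, or 0.0448 without control 2. Named after its values were seen, Asl, which releases arginine from argininosuccinate, had a log2 fold change of 0.83 (limma adjusted p = 0.0817, or 0.0236 without control 2). Oat, which consumes ornithine and was also named after its values were seen, had -0.76 (limma adjusted p = 0.0544, or 0.0210 without control 2). Ass1 was too low to test.

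In the methyl donor group, which supplies S-adenosylmethionine to GAMT, Gnmt was lower. Gnmt encodes a glycine methyltransferase that competes for the same donor, and its normalized counts were 39.3, 25.9, 51.4 and 93.8 in controls and 13.3, 7.97 and 20.6 in ICI-myocarditis. The groups were apart by a few counts, and the log2 difference was -1.78 (SE 0.513) at a limma adjusted p of 0.0461. It passed in 8 of 17 alternatives and in 1 of 7 that left out a library, that without control 2. Mat2a, the donor's synthetase outside liver, had a log2 fold change of -0.22 (limma adjusted p = 0.576), and Mat1a was too low to test.

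Creatine export and phosphocreatine turnover had no gene past the threshold among 3. Slc16a12, a creatine exporter, had a log2 fold change of -0.63 (limma adjusted p = 0.188) and the alkaline phosphatase Alpl had -0.85 (limma adjusted p = 0.133, or 0.0486 without control 2). Transport of ATP, ADP and phosphate across the mitochondrial membranes, which feeds the CKMT2 reaction, had 0 of 6 genes past the threshold. All 6 lay below 0 (median log2 value -0.52), except that Slc25a5 and Vdac2 turned above 0 under scaling by library total. Slc25a4, the adenine nucleotide carrier of heart and muscle, had 132892, 77011, 121966 and 205810 normalized counts in controls and 99091, 80262 and 45996 in ICI-myocarditis. Control 2 lay among the diseased hearts, and the log2 fold change was -0.82 (limma adjusted p = 0.237). Slc25a3, the phosphate carrier, had -0.79 (limma adjusted p = 0.248).

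Adenylate kinases are a further system of phosphate transfer that interconverts adenine nucleotides. Ak4, of the mitochondrial matrix, had 1166, 613, 944 and 1568 normalized counts in controls and 441, 652 and 355 in ICI-myocarditis. Control 2 again fell among the diseased hearts, the log2 fold change was -1.12 (SE 0.333, limma adjusted p = 0.0513), and without control 2 it was -1.36 (limma adjusted p = 0.0093).

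AMP-activated kinase, which senses the AMP that builds up when phosphate transfer falls short, had 0 of 7 subunits past the threshold, with a median log2 value of -0.21. Prkab1 had -0.49 (limma adjusted p = 0.174) and Prkag1 -0.46 (limma adjusted p = 0.317). Of the M-band proteins at the site where muscle creatine kinase docks, 0 of 3 passed. Myom1 had a log2 fold change of -0.40 (limma adjusted p = 0.478), and Myom3 had -0.07 (limma adjusted p = 0.910), whose sign turned to 0.09 under scaling by library total. Transcription factors known to act on muscle kinase genes had 0 of 7 past the threshold. All 7 lay below 0 (median log2 value -0.37), except that Srf turned above 0 under scaling by library total. Mef2c had -0.58 (limma adjusted p = 0.0699) and Ppargc1a, a coactivator of mitochondrial genes, had -0.91 (limma adjusted p = 0.114, or 0.0247 without control 2). Over the 42 pathway genes, 11 (26.2%) had an unadjusted limma p under 0.05, against 30.1% of all genes tested.

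**Figure D4:**
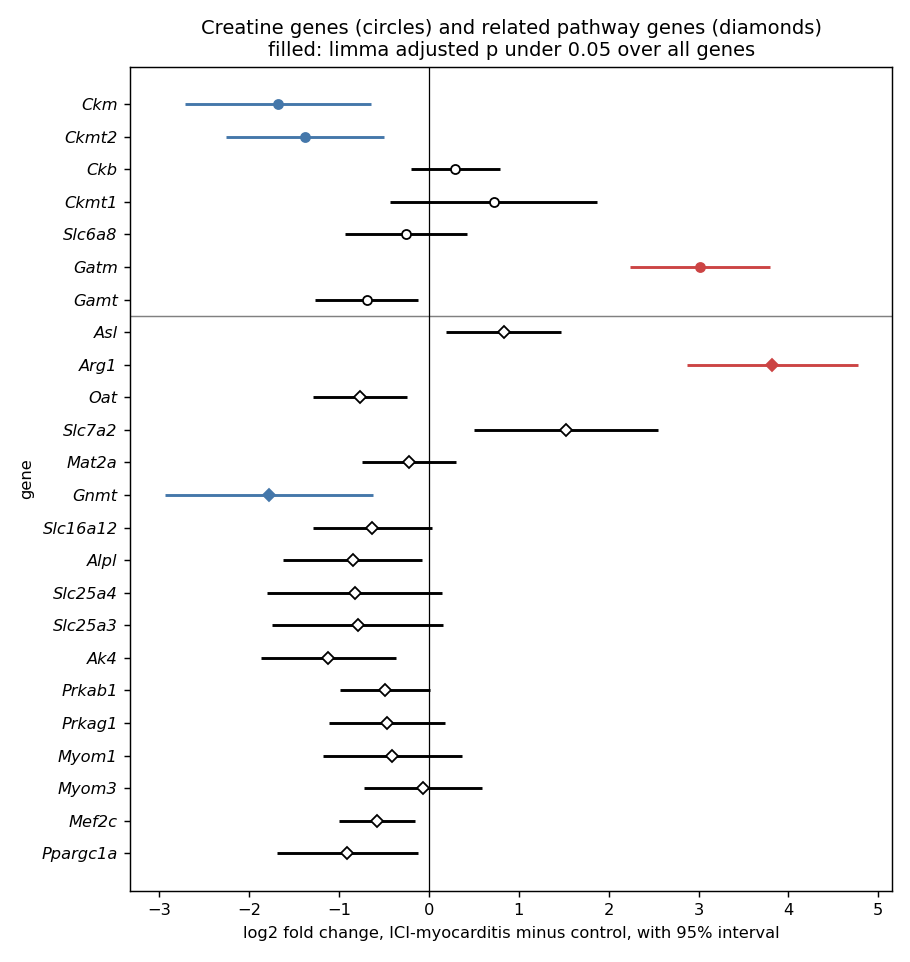
Log2 fold change of ICI-myocarditis over control (horizontal axis) with its 95% interval for the 7 creatine genes (circles) and 17 related genes (diamonds). Filled symbols passed a limma adjusted p of 0.05 over all genes. Gatm (3.02) and Arg1 (3.82) lie far to the right, and Ckm (-1.68), Ckmt2 (-1.37) and Gnmt (-1.78) have intervals wholly below 0.

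The genes whose log2 levels followed Ckm, Ckmt2 and Ckb most closely over the 7 libraries were found by Pearson correlation, which is a description and shares libraries, depth and scaling with the kinases. For Ckm they were Tmem143 (r = 0.998), Pygm, the muscle glycogen phosphorylase (0.997), Aldh4a1 (0.996), Lmf1 (0.996) and Laptm4b (0.996). For Ckmt2 they were Ctf1, which encodes cardiotrophin (r = 0.996), Col22a1 (0.996), Rnmtl1 (0.995), Lzic (0.994) and Ldhd, a mitochondrial lactate dehydrogenase (0.994). Ckb was followed less closely, by Isy1 (r = 0.958), Hipk1 (0.953), Cacng7 (0.951), Gng4 (0.950) and Gnb2 (0.948). For Gatm, taken up after its values were seen, they were C4b, a complement component (r = 0.9985), Mag (0.996), the Fc receptor gene Fcgr1 (0.996), Il27 (0.996) and Cd84 (0.994). The lists of these kinases and of Gatm had no gene in common.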

How the data were processed

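Total RNA of 7 mouse hearts was sequenced from a stranded kit, per the labels' protocols, and groups and replicate numbers come from the sample titles. The submitters' processing notes name STAR 2.7.3 and the builds GRCm38 and mm10; the counting program, its annotation and its use of strand are not given in the sources used here. The per-library values are a signal deposited by the authors, namely reads scaled by a single factor in each library. This is shown by the values, of which 100% are whole multiples of 1 step per library within 0.001. For control 1 that step is close to 1, a weaker sign than in the other libraries. The authors also deposited a log2 fold change, a test score and p-values. Totals of recovered reads give the depth; at that depth the spread between hearts limits precision for all but low genes such as Ckmt1, and intervals cover no error beyond the 7 hearts. Rows with date-like or repeated names numbered 27 and held 0.143% of reads.

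limma 3.58.1 (R 4.3.3, trend and robust variance) was fitted on log2(normalized count + 1) to genes reaching 10 normalized counts in 3 or more libraries, with Benjamini-Hochberg adjustment over all genes and a threshold of 0.05. Fold changes on this scale understate the change of low genes. edgeR 4.0.16 and DESeq2 1.42.0 on recovered reads, limma-voom, other pseudocounts, filters and scalings, a replicate block and leaving out each library gave 18 alternatives. The test was checked on simulated data.

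The genes and lists were chosen with earlier results of these data known. Named genes are the 7 creatine genes, every called gene and the 2 of lowest p in each pathway group, the 5 genes most correlated with Ckm, Ckmt2 and Ckb (leaving out Gm, LOC and Rik names), and the 2 markers of highest mean in each list; any other gene is marked as such. The macrophage marker Adgre1 is listed in the table under its older symbol Emr1. Gene positions and lengths come from GENCODE M21 (GRCm38), matched by symbol, and promoter sequences from RefSeq (GRCm38.p6). Not every gene named by this rule is reported.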

Additional observations from a re-analysis of the deposited data

How the results depend on the processing

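Gatm and Arg1 kept their direction and passed in 18 of 18 alternatives, while Ckb and Slc6a8 passed in 0 of 18. Ckmt1 passed in 0 of the 14 in which it was tested. Of the 7 creatine genes, 3 passed with the settings reported, 1 with a replicate block and 1 to 3 when a library was left out. Of the pathway list, 3 passed as reported, 9 with DESeq2, 9 with limma-voom, 6 with edgeR, 5 with TMM scaling, 5 with a pseudocount of 5, and 1 to 12 when a library was left out (12 without control 2). Over all genes 2397 passed as reported, 4003 with limma-voom and 986 (without ICI-myocarditis 3) to 3340 (without control 2) when a library was left out. By direction, the genes lower in ICI-myocarditis numbered 610 as reported, 1281 with DESeq2, 1518 with limma-voom, 389 with the replicate block, 311 under scaling by library total and 157 to 1088 when a library was left out, and the genes higher numbered 829 to 2252 when one was left out. Creatine genes called lower numbered 1 with edgeR, 0 with the replicate block and 0 to 2 when a library was left out. Pathway genes called lower numbered 5 with DESeq2, 3 with TMM scaling, 3 with edgeR, 6 with limma-voom, 2 with a pseudocount of 5, 0 at a filter of 50 normalized counts, 0 with no filter, 0 with the replicate block and 0 to 8 when a library was left out. Pathway genes called higher numbered 4 with DESeq2, 1 with limma without trend and robust variance and 1 to 4 when a library was left out. Ckmt2 did not pass with edgeR (adjusted p = 0.0564). Myom3 turned to 0.09 under scaling by library total and ranged from -0.23 (without control 1) to 0.05 (without control 3) when a library was left out. The cause was not tested.

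Deviations from group means of same-numbered libraries correlated at -0.271, -0.206 and -0.0784. Differently numbered libraries ranged from -0.477 to 0.451. Pairing by replicate number was therefore not seen, though so few pairs cannot exclude it. With the replicate block 1780 genes passed, Ckm had an adjusted p of 0.104 and Ckmt2 one of 0.158 (limma).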
